A study of Mus musculus with 384 samples.

Results

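Single cells were sorted from embryonic mouse skin as carrying much of the surface integrin CD49f and of the Lgr5 reporter. A minority of their wells had at least 2 of 5 chosen genes of mesenchymal cells at a set level. These wells were compared here with the wells in which none of the 5 genes reached that level. Wells of the sort gate held 1 cell each; those under 50000 gene reads, under 1500 genes read or over 20% mitochondrial reads were left out, 14 in all. A well was called mesenchymal-marked when at least 2 of the 5 genes Dcn, Lum, Postn, Twist1 and Pdgfrb reached 100 CPM, a unit in which the gene reads of every well add up to the same total, and unmarked when none of them did. This gave 18 marked wells and 77 unmarked wells, 95 in all, and the other 28 wells with exactly 1 of the 5 genes stood on neither side. The sides were thus cut by measured levels of 5 genes, so those genes are a description and every other gene is given as a difference between wells of 1 sort.

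The embryos carried the Lgr5-EGFP-IRES-CreER allele, in which a green fluorescent protein and a tamoxifen-dependent Cre are made from the Lgr5 locus, and were at embryonic day 14. The skin of females with the mammary buds in it was digested, and cells stained for CD45 (immune cells), CD31 (endothelial cells) or CD140a (the PDGF receptor alpha of fibroblasts) were left out of the sort by antibody. The same plate of 384 wells held single basal (CD24+CD29Hi) and luminal (CD24+CD29Lo) cells from adult mammary glands, wells of 50 cells of each gate and 4 wells without a cell. The labels name no embryo or litter, so the embryonic gate is 1 sample, cells are not replicates, and no test was made: intervals of folds cover counting error of reads only, intervals of shares of wells take cells as independent draws, and reads amplified without molecular identifiers are not independent molecules.

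The embryonic mammary bud is an epithelial placode that sinks into a specialised, condensed dermis. Its epithelial cells are held together by E-cadherin, EpCAM, claudins and desmosomes, and rest on a basement membrane through integrins such as CD49f. The surrounding mesenchymal cells make fibrillar collagens, are guided by factors such as TWIST and PRRX, and exchange signals with the epithelium, of which PTHrP from the bud acting on its receptor in the mammary mesenchyme is the best known.

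The marked wells met the mesenchymal label in most cases but not in all. Of the 18 marked wells, 13 had Col1a1, Col3a1 and Pdgfra all at 100 CPM or more, 2 had 2 of them, 1 had 1 and 2 had none. Of the 77 unmarked wells, none had all 3, 1 had 2, 14 had 1 and 62 had none. The epithelial genes Epcam, Cdh1, Krt5, Krt14 and Trp63 gave the reverse picture: 11 marked wells had none of the 5 at 100 CPM, whereas each of the 77 unmarked wells and each of the 28 wells with 1 rule gene had at least 1. The 2 sets of genes were not exclusive, since 5 marked wells had at least 2 of the 3 mesenchymal genes together with at least 1 epithelial gene, against 1 of the 77 unmarked wells.

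Of the 5 genes of the rule, Dcn, which encodes the collagen-binding proteoglycan decorin, reached 100 CPM in 15 of the 18 marked wells. The transcription factor gene Twist1 did so in 13, Lum (the proteoglycan lumican) in 11, Pdgfrb (the PDGF receptor beta of mural and mesenchymal cells) in 6 and Postn (the matrix protein periostin) in 4. The marked side was therefore chosen mainly by Dcn, Twist1 and Lum. By number of genes, 9 wells had 2 of the 5, 5 wells had 3 and 4 wells had 4. The wells nearest to the limit on the inside were N23, N7 and N16 (wells are named by their place on the plate), whose second rule gene stood at 120.9, 123.96 and 124.3 CPM. Nearest on the outside among unmarked wells were O16 with Lum at 92.9 CPM, P4 with Postn at 89.3 CPM and L10 with Dcn at 87.3 CPM. The same 5 genes would not separate adult cells in this way: 34 of 100 basal wells had at least 2 of them, mostly Postn (62 wells at 100 CPM) and Dcn (45 wells), with Lum and Twist1 at 100 CPM in 0 wells, and none of these 100 wells had 2 of Col1a1, Col3a1 and Pdgfra at 100 CPM.

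Col1a1 (ENSMUSG00000001506.10, chr11:94936224-94953042 in GRCm38) encodes the alpha-1 chain of type I collagen. It ranged from 18.9 CPM to 19600 CPM over the marked wells with a median of 2001 CPM, and from 0 to 299 CPM over the unmarked wells with a median of 10.8 CPM. Only the lowest marked wells overlapped with the unmarked ones: 15 of 18 marked wells and 3 of 77 unmarked wells were at 100 CPM or more. Summed over wells, the level was 3882 CPM against 26.8 CPM, a ratio of 145 (counting interval 137.3 to 153), and the log2 ratio lay between 6.77 and 7.29 whichever marked well was left out. Col3a1 (chr1:45311538-45349706), the type III collagen chain, had a median of 4578 CPM in marked and 8.71 CPM in unmarked wells. Its ranges, 0 to 19748 CPM and 0 to 1440 CPM, overlapped more widely, and 16 of 18 against 13 of 77 wells reached 100 CPM.

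Pdgfra (chr5:75152292-75198215) encodes CD140a, the very protein by which cells were left out of the sort. Its transcript ranged from 0 to 1775 CPM with a median of 313 CPM in marked wells and from 0 to 98.8 CPM with a median of 0 in unmarked wells. It reached 100 CPM in 13 of 18 marked wells and in 0 of 77 unmarked wells, and had no read in 4 and 69 wells respectively. After each well was thinned to 50000 reads and 5 reads were asked for detection, Pdgfra was seen in 66.7% of marked wells (exact Clopper-Pearson 95% interval 40.99 to 86.7) and in 1.299% of unmarked wells (0.0329 to 7.02). As background, it was seen in 2.78% of adult luminal wells and in 10% of adult basal wells (4.90 to 17.6), with up to 1757 CPM in the latter. Whether the protein was present on these cells was not measured.

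The other genes of the sort were on both sides. Itga6, which encodes CD49f, ranged from 0 to 1419 CPM in marked wells (median 404) and from 70.97 to 11132 CPM in unmarked wells (median 939). Lgr5, the receptor gene that carries the reporter, ranged from 0 to 2227 CPM (median 174) and from 0 to 3002 CPM (median 431), with no read in 4 of 18 and 4 of 77 wells. Of the 77 unmarked wells, 26 lay above the highest marked well for Itga6 and 2 for Lgr5, and 3 marked wells lay below the lowest unmarked well for Itga6. Over summed reads Itga6 was 1.96-fold and Lgr5 1.49-fold lower in marked wells. Ptprc, the gene of CD45, had no read on either side, and Pecam1, the gene of CD31, was at 0 CPM in marked and 1.17 CPM in unmarked wells.

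**Figure D1:**
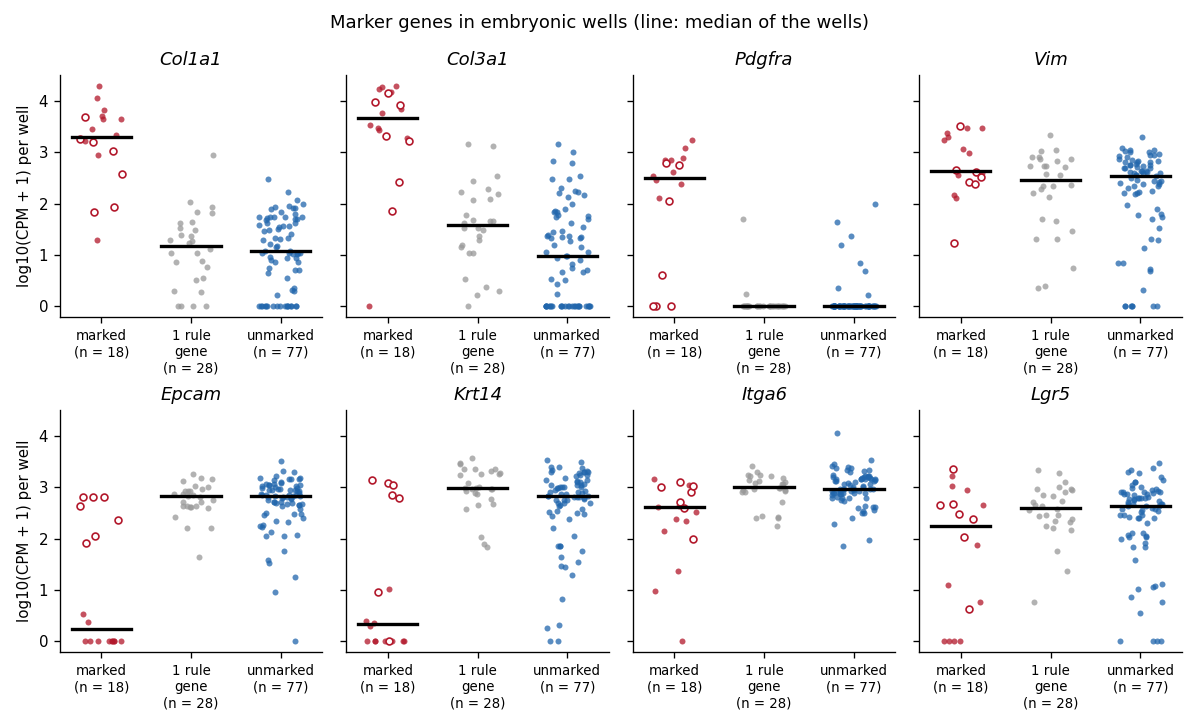
Level of 8 marker genes in each embryonic well, as log10(CPM + 1), in the 18 marked wells, the 28 wells with 1 rule gene and the 77 unmarked wells; each point is a well, the black line is the median, and open circles are the 7 marked wells with an epithelial gene at 100 CPM or more. Col1a1, Col3a1 and Pdgfra were high in most marked wells, Epcam and Krt14 were near 0 in the filled marked wells, and Itga6, Lgr5 and Vim overlapped between the sets.

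Over all genes, 12458 had at least 5 CPM on either side of the summed reads and are called measured below. Of these, 2415 (19.4%) stood 2-fold or more above the unmarked level in the marked wells and 3592 (28.8%) stood 2-fold or more below it on the log2(CPM + 1) scale, and the median log2 ratio of all measured genes was -0.19. That a large part of the genes passes a 2-fold difference between 18 and 77 single cells is the background against which each list below has to be read. A stricter count asked for a 4-fold difference and for 10 CPM in at least 50% of the wells of the higher side: 190 genes (1.53%) were higher and 67 genes (0.538%) lower by it. Without the 7 marked wells with an epithelial gene, an alternative chosen after seeing the data, these counts were 308 and 271. Without well O10 alone, the stricter share of lower genes was 0.916%. Leaving out 1 marked well moved the ratio by over 1.5 times for 163 of 369 list members and named genes, for 27 of them most with O10. Such wells are named below beside many of the genes described, but not beside all.

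Genes of the collagenous matrix were higher in the marked wells throughout the list. All 12 measured fibrillar and associated collagens were at least 2-fold higher, with a median log2 ratio of 5.62. Without P16, 10 were: the log2 ratio of Col11a1 moved from 1.61 to 0.76 and that of Col16a1 from 1.55 to 0.96. Col11a1 also missed 2-fold without P20, at 0.80. Besides Col1a1 and Col3a1, Col1a2, the alpha-2 chain of type I collagen, stood at 9380 CPM against 82.3 CPM in summed reads, and ranged from 16.5 to 43351 CPM over marked wells and from 0 to 924 CPM over unmarked wells. Col6a3, a chain of the microfibrillar type VI collagen, had the largest log2 ratio of the genes named by rule: 967 CPM against 1.35 CPM, a ratio of 714 (567 to 914). It was at 10 CPM or more in 15 of 18 marked and 3 of 77 unmarked wells. Its partner chains Col6a1 (949 against 10.2 CPM) and Col6a2 (802 against 13.5 CPM) went the same way, as did Col5a2 (1162 against 25.6 CPM), whose product co-assembles with type I collagen.

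Of 19 measured interstitial matrix proteins, 16 were higher by 2-fold or more and 1 was lower (median of the log2 ratios 2.71). Sparc, a collagen-binding matricellular protein, had the highest level of this list at 4735 against 725 CPM, with reads in all 18 marked wells (273 to 11287 CPM). Fbn2, the microfibril protein fibrillin-2 of embryonic tissue, was 47.8-fold higher (1379 against 28.9 CPM). Fn1, the fibronectin gene, differed little: 1023 against 700 CPM, and 17 of 18 and 71 of 77 wells had it at 10 CPM. The member on the other side was Fmod (fibromodulin) at 4.95 against 11.6 CPM, with reads at 10 CPM in 1 marked and 7 unmarked wells only. Its log2 ratio of -1.09 was -3.27 without L18 and missed 2-fold without any 1 of L13, M22, N16, M11 and O10.

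Of 17 genes of collagen processing and matrix remodelling, 15 were higher and 1 lower (median 2.41). Lox, the lysyl oxidase that crosslinks collagen, was 74.4-fold higher (491 against 6.60 CPM) but uneven: 10 of 18 marked wells had it at 10 CPM and its median was 48.8 CPM. The gelatinase gene Mmp2 (552 against 191 CPM), the membrane protease gene Mmp14 (361 against 179 CPM) and the inhibitor gene Timp2 (366 against 148 CPM) were also expressed in most unmarked wells. Timp3, another inhibitor of matrix proteases, was the exception at 0.887 against 41.6 CPM, 46.9-fold lower, and was at 10 CPM in 1 of 18 marked and 19 of 77 unmarked wells. Col24a1 and Adamtsl1, 2 further matrix genes named by rule, were at 149 against 0.169 CPM and 245 against 0.395 CPM. Sulf1, a sulfatase that trims heparan sulfate chains outside the cell, was at 422 against 1.30 CPM. The log2 ratio of Timp3, -4.50, was -5.21 without P20, and that of Col24a1, 7.01, was 6.15 without M11. Mmp14, at a log2 ratio of 1.01, missed 2-fold without any 1 of P16, N7, M11 and G17.

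Mesenchymal transcription factors formed the list with the second largest median, 4.43, and 16 of 17 measured members were at least 2-fold higher. Twist2 ranged from 0 to 590 CPM with a median of 214 in marked wells and from 0 to 94.5 CPM with a median of 0 in unmarked wells. Prrx1, a paired-type homeobox gene of limb and dermal mesenchyme, ranged from 0 to 1049 CPM (median 291) against 0 to 304 CPM (median 0). Each had a level of 10 CPM in most marked wells and few others, 15 against 10 wells for Twist2 and 12 against 4 for Prrx1. The zinc finger genes Zeb1 (116.2 against 0.0564 CPM) and Zeb2 (135.3 against 4.38 CPM), whose products repress epithelial genes, were at 10 CPM in 8 and 12 marked wells and in 1 and 2 unmarked wells. Tcf4, an E-protein gene, was high everywhere, with 1594 against 513 CPM and reads at 10 CPM in all 95 wells. Nr2f2, a nuclear receptor gene, was the member on the other side at 18.6 against 46.1 CPM. Another 9 members of the list, among them Tcf21, Ebf2 and Foxd1, were under 5 CPM on both sides. The median of the list was 3.76 without N7, and the log2 ratio of Nr2f2, -1.27, was -2.10 without L18.

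Of 19 measured surface and receptor genes of fibroblasts, 15 were higher and 1 lower (median 3.47). Ddr2, a receptor tyrosine kinase for fibrillar collagen, was at 10 CPM in 14 of 18 marked wells and 1 of 77 unmarked wells, and stood at 493 against 4.45 CPM in summed reads. Crabp1, a retinoic acid binding protein of embryonic dermis, was at 613 against 36.3 CPM. Cdh11, the mesenchymal cadherin, was at 251 against 2.63 CPM, and Dlk1, a transmembrane relative of Notch ligands, at 283 against 6.13 CPM. The growth factor genes Mdk (394 against 463 CPM) and Ptn (240 against 371 CPM) of the same list were at 10 CPM in most wells of both sides, and Pdpn, podoplanin, was 30.6-fold lower in marked wells (1.55 against 47.5 CPM). Without O10, Ptn was lower too, at a log2 ratio of -1.07 in place of -0.62.

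Genes described for the mammary mesenchyme and for dermal condensates were divided. Of 16 measured, 9 were higher by 2-fold or more and 1 was lower, with a median log2 ratio of 1.60. Pth1r (ENSMUSG00000032492.14, chr9:110722085-110747145), the receptor of PTHrP, ranged from 0 to 693 CPM with a median of 200 CPM in marked wells and from 0 to 43.95 CPM with a median of 0 in unmarked wells. It was at 100 CPM in 12 of the 18 marked wells, and reached 5 reads after thinning in 61.1% of marked wells (35.7 to 82.7). In the unmarked wells it reached 5 reads after thinning in 0 of 77, for which the exact interval runs up to 4.68%. Before thinning it was at 10 CPM in 5 of the unmarked wells and had no read in 63. Its ligand gene Pthlh went the other way, at 116.7 against 422 CPM, with 7 of 18 and 65 of 77 wells at 10 CPM. In the 11 marked wells without an epithelial gene the median of Pth1r was 274 CPM and that of Pthlh 0, and in the other 7 marked wells the medians were 0 and 168 CPM. The Wnt antagonist genes Dkk2 and Wif1 were at 271 against 0.658 CPM and 92.1 against 1.80 CPM, and Apcdd1, an inhibitor of Wnt receptors, at 258 against 42.6 CPM. Esr1 (73.4 against 119.9 CPM), Lef1 (108.6 against 172 CPM) and Bmpr1a (173 against 196 CPM) differed by less than 2-fold, and Trps1 was 3.83-fold lower. The log2 ratio of Trps1, -1.92, was -2.85 without O10, and that of Dkk2, 7.36, was 6.75 without M11.

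Genes of signalling pathways did not move as blocks. Of 23 measured Wnt receptors, feedback and R-spondin genes, 7 were higher and 5 lower (median -0.33): Rspo1, a secreted amplifier of Wnt signals, was at 87.1 CPM against 0.0564 CPM and at 10 CPM in 8 marked wells and 0 unmarked wells, while Znrf3 and Rnf43, the ubiquitin ligases that R-spondins act on, were at 147 against 424 CPM and 37.2 against 135.6 CPM. Higher calls of other Wnt pathway genes hung on 1 well each. The log2 ratio of Rspo3, 3.97, was -0.03 without A21, and that of Dkk1, 3.10, was -0.22 without N7. That of Nkd2 turned from 1.43 to -1.57 without J22. Of 10 Hedgehog pathway genes, 5 were higher and 0 lower (median 1.04), but 4 were higher and 3 lower (median 0.16) without well L13. The list was led in level by the co-receptor genes Gas1 (409 against 51 CPM) and Cdon (330 against 50.0 CPM). Gli1 and Hhip, which are Hedgehog targets, came from few cells: 13.8 CPM from 1 marked well at 10 CPM and 31.2 CPM from 4. The log2 ratio of Gli1, 3.86, was 0.54 without L13, that of Hhip, 5.01, was 4.07 without M11, and that of Rnf43, -1.84, was -4.74 without P20. Of 15 FGF ligands, receptors and feedback genes, 5 were higher (3 without L13) and 7 lower (median -0.88), with Fgfr1 at 261 against 77.9 CPM and Fgfr2 at 406 against 820 CPM. The log2 ratio of Fgfr2, -1.01, ran from -1.25 without O10 to -0.86 without M11, so its 2-fold call hung on single wells. Of 20 TGF-beta and BMP genes, 6 were higher and 5 lower (median 0.22). Inhba, the activin A subunit, was the most different of them at 191 against 0.169 CPM, a ratio of 1128 (593 to 2470), yet only 9 of 18 marked wells had it at 10 CPM and its median was 18.9 CPM.

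Fetal growth genes were among the most abundant transcripts that differed. Of 16 measured imprinted and fetal growth genes, 10 were higher by 2-fold or more and 2 were lower (median 1.5). Igf2, the fetal insulin-like growth factor, ranged from 54.2 to 7269 CPM with a median of 2024 CPM in marked wells and from 0 to 1969 CPM with a median of 341 CPM in unmarked wells. H19, the noncoding RNA of the same imprinted domain, ranged from 71.5 to 7779 CPM (median 2727) against 0 to 2347 CPM (median 463). The ranges overlapped, and the ratios of summed reads were 6.93 (6.81 to 7.05) and 5.65 (5.56 to 5.73). Peg3, a paternally expressed zinc finger gene, was at 351 to 6225 CPM in the marked wells (median 2111) and had a median of 114.1 CPM in the unmarked ones, and Meg3, a maternally expressed noncoding RNA, stood at 1186 against 81.5 CPM. Lin28b, an inhibitor of let-7 maturation, had no read in marked wells and 12.8 CPM in unmarked ones, at least 57.5-fold lower with 3 reads as the limit over all marked wells, but 69 of the 77 unmarked wells had no read of it either and 6 had it at 10 CPM. Of 12 insulin-like growth factor genes, 5 were higher and 1 lower (median 0.65): the binding protein genes Igfbp5 (1276 against 528 CPM) and Igfbp3 (219 against 44.2 CPM) were higher, Igf1r (194 against 224 CPM) differed little, and the adaptor gene Irs4 was at 142 against 342 CPM. Well O10 had Irs4 at 1176 CPM, and without it the log2 ratio of -1.26 was -4.33. That of Igfbp5, 1.27, was 0.97 without P16.

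Of 16 measured Hox genes, which encode position along the body axes, 12 were higher and 1 lower (median 2.37), all at low levels. Hoxb9 was at 49.2 CPM in marked wells, at 10 CPM in 7 of 18, and had no read in any of the 77 unmarked wells. With 3 reads as the limit over all unmarked wells, this puts it 872-fold higher or more. Hoxd8 was at 84.5 against 7.63 CPM and Hoxa10 at 60.6 against 0.301 CPM, the latter from 5 wells. Hoxa7 was the member on the other side at 1.04 against 8.34 CPM, from 1 and 3 wells. Because each was read in few cells, these values do not describe the side as a whole. Log2 ratios moved from 5.65 to 4.79 without N16 for Hoxb9, from 5.56 to 4.90 without O11 for Hoxa10 and from 3.31 to 2.72 without M22 for Hoxd8.

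**Figure D2:**
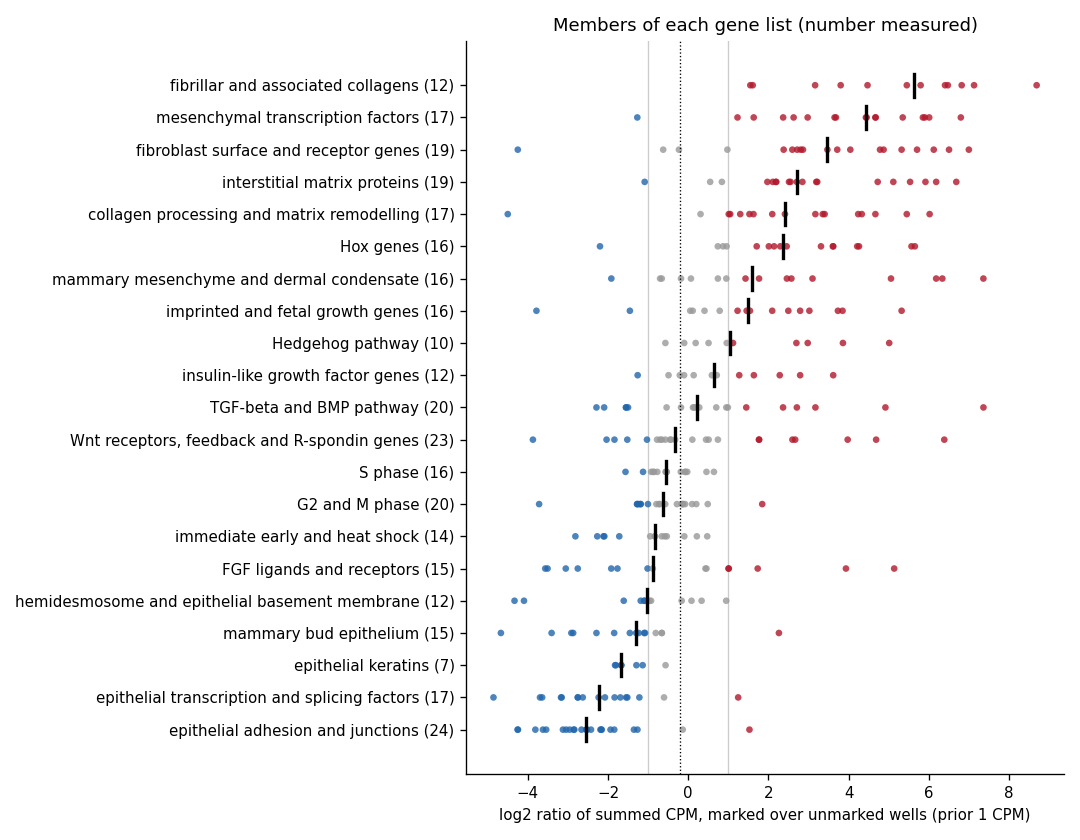
Log2 ratio of summed CPM, marked over unmarked wells with a prior of 1 CPM, for each measured member (points) of 21 gene lists with the median of the list (black bar) and the median of all measured genes (dotted line, -0.19); red points are at least 2-fold higher and blue points at least 2-fold lower. Collagens lie to the right of the 2-fold line without exception, adhesion genes lie to the left except Ocln and Ctnnd1, and the Wnt, TGF-beta and cell cycle lists lie around the dotted line.

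Epithelial genes were lower in the marked wells. Of 24 adhesion and junction genes, 22 were at least 2-fold lower and 1 higher, with a median log2 ratio of -2.54. Epcam (ENSMUSG00000045394.9, chr17:87635979-87651129), the epithelial adhesion molecule, ranged from 0 to 648 CPM with a median of 0.711 CPM in marked wells and from 0 to 3241 CPM with a median of 672 CPM in unmarked wells. It was at 10 CPM in 7 of 18 and in 75 of 77 wells, so the summed ratio of 4.52-fold lower (4.33 to 4.71) joins 11 wells near 0 with 7 wells at 80.1 to 648 CPM. Cdh1, E-cadherin, was 5.91-fold lower (42.1 against 249 CPM), and its median was 0 against 125.9 CPM. The tight junction genes Cldn4 (15.6 against 232 CPM), Cldn7 (16.6 against 144 CPM) and Cldn6 (68.5 against 372 CPM) were lower, as were the desmosomal tetraspan gene Perp (67.1 against 592 CPM) and the protease inhibitor genes Spint1 (10.6 against 133.6 CPM) and Spint2 (130.8 against 586 CPM). Ocln, occludin, was the member on the other side at 22.8 against 7.25 CPM, but 1 well, G17, carried it, and without that well the log2 ratio was -2.94. Single wells also held much of the marked level of other genes of the list. Without O10 the log2 ratios of Cldn4, Cldn6 and Spint2 moved from -3.81, -2.42 and -2.15 to -6.06, -3.95 and -3.53. That of Cldn7 moved from -3.04 to -5.29 without G17, that of Spint1 from -3.54 to -4.68 without N9 and that of Perp from -3.12 to -3.73 without P16.

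The promoters of several of these adhesion genes hold the E-box CACCTG or its reverse complement CAGGTG, to which ZEB and SNAI repressors are known to bind. Windows of the adhesion list are given here as sequence only. In the 250 bases before each RefSeq start (GRCm38.p6), 17.2% of all 32841 windows held the motif on either strand and 2.06% held it at least 2 times. Of 16 windows of adhesion and junction genes 7 held it (7 of 13 genes), and of 9 collagen windows 1 did (1 of 8 genes, Col16a1). Only these 13 of the 24 adhesion genes and 8 of the 12 collagens had a window, and Cdh1 had none. Ocln, the adhesion gene that was higher over all marked wells, held it 2 times in 1 of its windows. Spint1, which was lower, had no motif. The 4 windows below were picked as examples, 3 of adhesion genes with the motif and that of Col6a3, the leading collagen gene, without it. Each is written 5′ to 3′ along the strand of the gene and ends at the base before the start, with the motif in capitals.
Epcam, chr17:87635729-87635978, plus strand: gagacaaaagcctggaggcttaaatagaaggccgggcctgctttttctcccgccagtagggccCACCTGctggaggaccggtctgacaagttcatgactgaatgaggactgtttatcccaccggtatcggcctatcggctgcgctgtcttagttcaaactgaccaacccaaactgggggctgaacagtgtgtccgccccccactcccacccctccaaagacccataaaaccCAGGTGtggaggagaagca
Cldn4, chr5:134946935-134947184, minus strand: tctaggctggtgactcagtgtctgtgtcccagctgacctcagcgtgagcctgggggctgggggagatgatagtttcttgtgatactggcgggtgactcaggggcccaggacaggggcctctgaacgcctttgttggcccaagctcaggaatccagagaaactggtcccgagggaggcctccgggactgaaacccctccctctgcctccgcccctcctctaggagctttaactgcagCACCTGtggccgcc
Spint2, chr7:29281978-29282227, minus strand: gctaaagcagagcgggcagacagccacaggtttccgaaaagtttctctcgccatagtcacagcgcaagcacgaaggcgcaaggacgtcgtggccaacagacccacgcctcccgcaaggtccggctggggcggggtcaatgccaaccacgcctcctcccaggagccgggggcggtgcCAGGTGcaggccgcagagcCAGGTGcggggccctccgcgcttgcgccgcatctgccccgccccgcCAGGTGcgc
Col6a3, chr1:90843972-90844221, minus strand: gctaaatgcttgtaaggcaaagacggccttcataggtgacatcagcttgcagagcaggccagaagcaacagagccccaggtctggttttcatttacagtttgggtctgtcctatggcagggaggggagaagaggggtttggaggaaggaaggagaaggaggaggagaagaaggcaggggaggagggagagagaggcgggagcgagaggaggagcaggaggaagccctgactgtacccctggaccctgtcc
The motif stood 187 and 19 bases before the start of Epcam, 14 before that of Cldn4, and 74, 55 and 9 before that of Spint2, counted to its first base. A match of letters is a description of the sequence, and binding was not measured. Whether the motif had a part in the levels was not tested.

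Of 7 measured keratins, 6 were at least 2-fold lower (median -1.67). Krt14, the basal keratin, ranged from 0 to 1351 CPM with a median of 1.1 CPM in marked wells and from 0 to 3356 CPM with a median of 684 CPM in unmarked wells. Krt5 (90.4 against 289 CPM), Krt8 (115.5 against 405 CPM) and Krt18 (106.6 against 235 CPM) were read at 10 CPM in 5 to 7 of the 18 marked wells. Without O10 the log2 ratio of Krt18 moved from -1.14 to -3.27 and that of Krt5 from -1.67 to -2.33, without P20 that of Krt8 moved from -1.80 to -2.45, and Krt18 missed 2-fold without M11 or M22. Of 17 epithelial transcription and splicing factors, 15 were lower and 1 higher (median -2.23). Esrp1, a splicing regulator of epithelial isoforms, was 6.87-fold lower (43.9 against 301 CPM; its log2 ratio of -2.75 was -4.10 without O10), Gata3 3.58-fold lower (277 against 991 CPM) and Tfap2b 3.25-fold lower (126.3 against 410 CPM). Trp63, which encodes the basal epithelial factor p63, was at 154 against 235 CPM in summed reads, but this level came from 6 marked wells and the medians were 0 and 97.6 CPM. Trp73 was the member on the other side (85.04 against 35.3 CPM), also from 6 wells, and missed 2-fold without N9 or P20. Trp63 was 2-fold lower without G17, at a log2 ratio of -1.06. Of 12 hemidesmosome and basement membrane genes, 6 were lower and 0 higher (median -1.02), with Plec (102.3 against 195 CPM) inside 2-fold unless P20, M22, N16 or O10 was left out. Without any 1 of N9, M22, P16 and M11, 1 member of that list was higher.

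Genes of the mammary bud epithelium were lower on balance but were read in part of the marked wells. Of 15 measured, 11 were lower and 1 higher (median -1.30). Ndnf, a secreted factor, and Sox11, a transcription factor, were at 497 against 1065 CPM and 498 against 1225 CPM, each at 10 CPM in 11 of 18 and 76 of 77 wells. Wnt6 was 7.70-fold lower (37.3 against 288 CPM), and Edar, the ectodysplasin receptor of skin placodes, stood at 1.70 against 67.7 CPM. Sostdc1, an antagonist of BMP and Wnt signals, was the member on the other side at 192 against 39.3 CPM, with medians of 7.75 and 0 CPM. Its log2 ratio of 2.26 was 1.25 without O11, that of Edar moved from -4.67 to -6.10 and that of Wnt6 from -2.91 to -3.53 without P20, and Ndnf missed 2-fold without M11 or M22.

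The 4 genes of the whole table furthest down by the naming rule that are not of an adhesion list were Ston2, Plcb4, Scube3 and Fbrsl1. Ston2, an adaptor of vesicle uptake, was 66.5-fold lower (44.98 to 102.8), with 1 of 18 against 42 of 77 wells at 10 CPM. Plcb4, a phospholipase C, Scube3, a secreted protein with EGF repeats, and Fbrsl1 were 18.2-fold, 17.1-fold and 15.7-fold lower. Kcnh7, a potassium channel gene, and Vezt, vezatin of adherens junctions, were 11.8-fold and 9.85-fold lower. On the other side Tmem119, a membrane protein gene of bone-forming cells and microglia, had 1305 reads in the marked wells and 0 in the unmarked ones. This is 1712-fold higher or more with 3 reads as the limit over all unmarked wells, and the lower end of the counting interval was 1390-fold. It was at 10 CPM in 9 of 18 marked wells, so it too described part of them. Log2 ratios moved from -5.44 to -6.23 for Ston2 and from -3.44 to -4.51 for Kcnh7 without N16, from -4.02 to -4.71 for Plcb4 without N9, from -3.93 to -4.57 for Scube3 without N23, and from 6.61 to 5.89 for Tmem119 without M11.

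Few proliferation genes were higher, and the number lower depended on single wells. Of 16 measured S phase genes, 0 were higher and 2 lower (median -0.55), and of 20 G2 and M phase genes, 1 was higher and 7 lower (median -0.64). Without O10, 7 S phase genes were lower (median -0.86), and without M22 1 was. Mki67 ranged from 0 to 1198 CPM (median 22.6) in marked and from 0 to 1635 CPM (median 0) in unmarked wells, with 9 of 18 and 33 of 77 wells at 10 CPM. Top2a was at 333 against 365 CPM. Of 14 immediate early and heat shock genes, which respond to dissociation, 0 were higher and 5 lower (median -0.83), with Egr1 at 534 against 1032 CPM, Fos at 284 against 505 CPM and Ier2 at 94.1 against 312 CPM. Without O10, 9 of these were lower (median -1.67), Egr1 and Fos among them. Their part in the differences was not tested.

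Few markers of other cell types were measured, and some of these were higher in the marked wells. The immune genes Ptprc, Cd52 and Laptm5, the endothelial genes Tek, Tie1 and Emcn, the melanocyte genes Dct and Tyrp1 and the muscle genes Myod1 and Myf5 had no read on either side, and Sox10 of neural crest had none in marked wells. Of the 10 immune, 10 endothelial, 8 Schwann cell, 7 melanocyte and 9 muscle markers, 1, 2, 3, 2 and 1 were measured at all, and the summed level of each list in a marked well was at most 5.04, 56.3, 207, 259 and 152 CPM. Of those measured, 0, 0, 2, 0 and 1 were at least 2-fold higher and 1, 2, 1, 1 and 0 lower. Among the Schwann cell markers, Ngfr had a log2 ratio of 2.59 to 3.31 whichever marked well was left out, and Erbb3 one of -3.60 to -2.62. The muscle gene was Tnnt1, with no read in the 77 unmarked wells and a log2 ratio of 3.86, or 2.44 without M22. Of 6 measured pericyte and smooth muscle genes, 4 were higher and 1 lower (median 3.19), but Rgs5 was at 0.0739 CPM and Des had no read. The log2 ratio of Cspg4 lay between 3.36 and 4.71 whichever marked well was left out. That of Notch3, the lower member, lay between -1.96 and -1.30. Acta2, smooth muscle actin, was at 135.9 against 6.43 CPM with 3 marked wells at 10 CPM, and its log2 ratio of 4.20 was 1.70 without well M22, which had it at 1135 CPM. Adipocyte, cartilage and bone, erythroid and suprabasal markers had 2, 3, 4 and 3 measured members, of which 1, 0, 2 and 0 were higher. Xist, read in all 18 marked wells, had medians of 1682 and 2060 CPM, and the Y-linked genes had no read on either side.

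The marked wells differed among themselves in their collagen level. The sum of the 12 collagens lay between 8353 CPM (G17) and 96960 CPM (O19) in 15 of them, and at 546, 393 and 240 CPM in N9, O10 and P20. The unmarked wells reached from 0 to 2536 CPM with a median of 271 CPM, so N9, O10 and P20 stood inside their range. These 3 wells met the rule by Pdgfrb, Dcn and Pdgfrb as their highest rule gene and had no Pdgfra above 3.17 CPM. N9 and O10 had Epcam at 633 and 648 CPM. P20 had Epcam at 2.36 CPM but Krt8 at 1419 CPM, a keratin sum of 1881 CPM and Lgr5 at 882 CPM, so it was the 1 well with neither 2 mesenchymal genes nor any of the 5 epithelial genes at 100 CPM.

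The 7 marked wells G17, L17, N9, N16, N23, O10 and P16 had at least 1 of the 5 epithelial genes at 100 CPM. In G17, L17, N16, N23 and P16 they stood beside a collagen sum of 8353 to 42217 CPM. P16, for example, had Col1a1 at 4950 CPM and Trp63 at 493 CPM, and N23 had Dcn at 3467 CPM and Krt14 at 1351 CPM. The median of Epcam was 428 CPM in the 7 wells and 0 in the other 11, and that of Col1a1 was 1055 and 4407 CPM. The median of Itga6 was 813 and 235 CPM and that of Lgr5 299 and 11.4 CPM. Single wells did not follow these medians: P20, O19 and M22, without an epithelial gene, had Lgr5 at 882, 1618 and 1075 CPM, P20 had the highest Itga6 at 1419 CPM, L17 had Lgr5 at 3.31 CPM and N23 had Itga6 at 98.2 CPM.

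Genes with a read numbered 4340 to 8546 (median 5963) in the 7 wells and 3634 to 6325 (median 5738) in the 11, and 3316 to 5668 (median 3755) against 2827 to 4441 (median 3928) at an equal 50000 reads. Gene reads per spike-in read, which move with the RNA in a well, were 1.93 to 29.9 (median 22.7) against 13.99 to 77.1 (median 30.1). Of the 7 wells, 3 (N16, O10 and P16) had more genes with a read than any of the 11. No doublet caller was run, and the part of doublets or of free RNA in these wells was not tested.

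**Figure D3:**
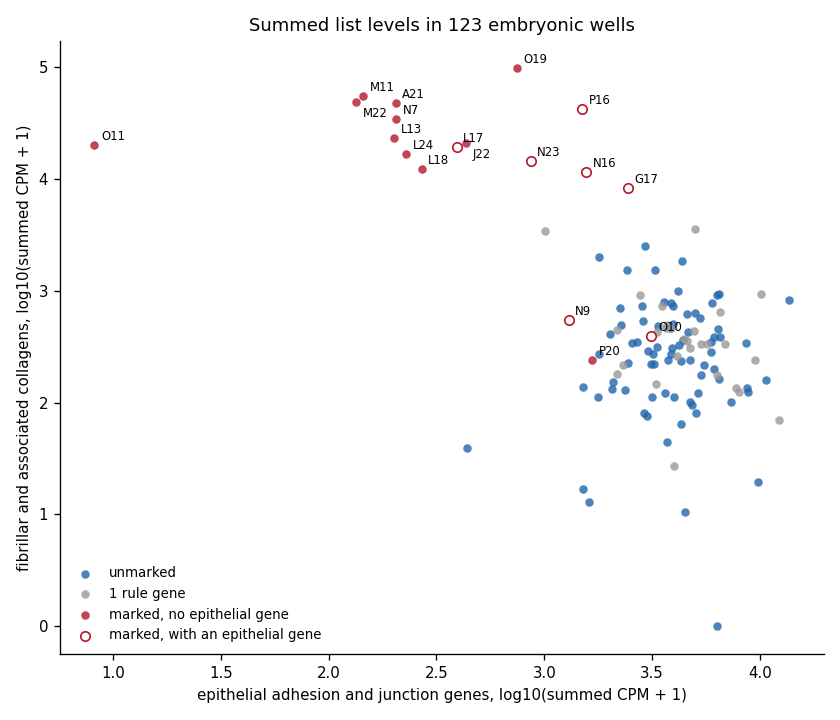
Summed level of the 12 collagens against that of the 24 adhesion and junction genes in each of the 18, 28 and 77 embryonic wells of the 3 sets, both as log10(summed CPM + 1), with the marked wells named by plate position. The marked wells without an epithelial gene lie at the upper left except P20, N9 and O10 lie with the unmarked wells at the lower right, and G17, N16, N23 and P16 lie between, while L17 lies at the upper left.

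**Figure D4:**
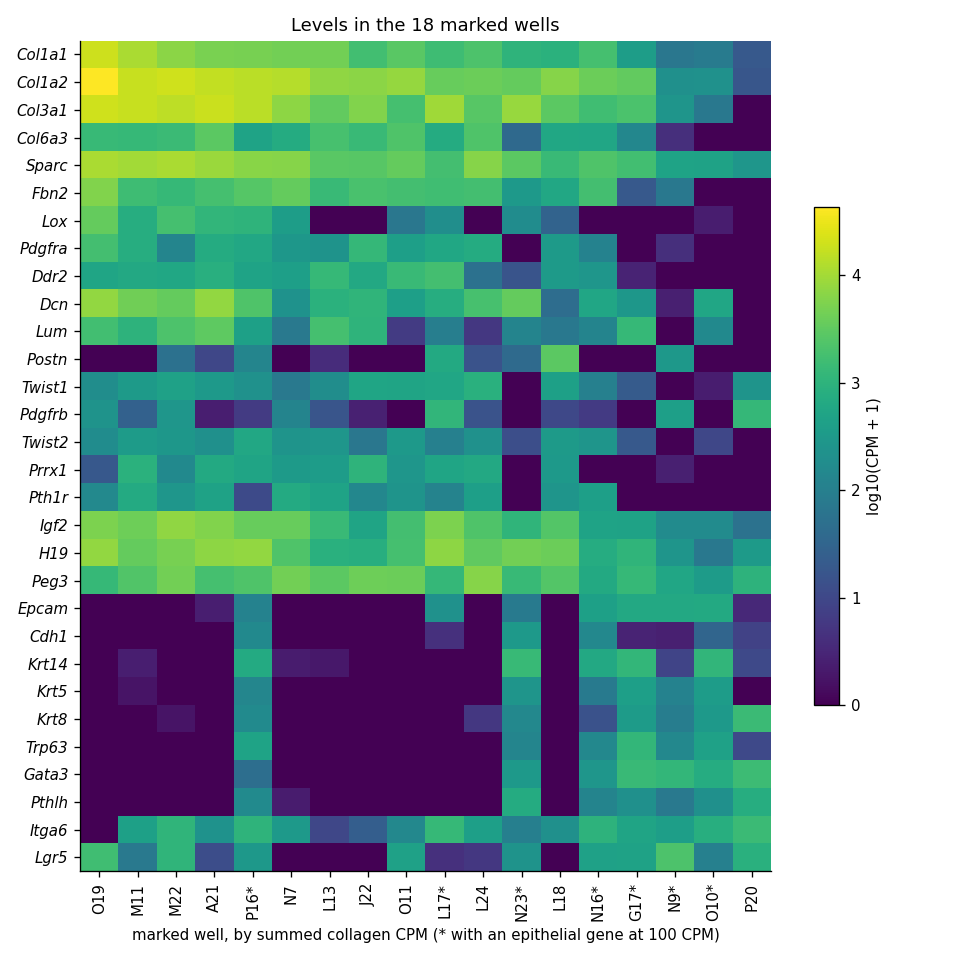
Levels of 30 genes, as log10(CPM + 1), in the 18 marked wells ordered by summed collagen level, where a star marks a well with an epithelial gene at 100 CPM or more. Collagen, Twist2, Prrx1 and Pth1r levels fade towards the right end, where N9, O10 and P20 stand, and the epithelial genes from Epcam to Pthlh are near 0 in the wells without a star other than P20.

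Leaving out these wells changed the size of the differences more than their direction. Without the 7 wells the median log2 ratio of the adhesion genes was -4.26 in place of -2.54, that of the keratins -6.95 in place of -1.67, and that of the bud epithelium -2.61 in place of -1.30. The median of the collagens was 6.10 in place of 5.62, with 12 of 12 collagens higher. Of the adhesion genes 22 were lower, as many as before but not all the same ones, since Ocln turned from 1.53 to -3.05. Without the 3 wells of low collagen the medians were 5.92 for collagens and -3.00 for adhesion genes. The fibroblast surface list gave 16 members higher without either set of wells, and immediate early genes gave 11 and 9 members lower in place of 5. Both alternatives were chosen after seeing the data. The 7 wells were set apart by genes that include Epcam of the adhesion list and Krt5 and Krt14 of the keratin list. The 3 wells were set apart by their collagen level. Shifts of the adhesion, keratin and collagen medians therefore follow in part from the choice of wells.

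The 28 wells with exactly 1 rule gene resembled the unmarked wells in these measures. Their collagen sum had a median of 343 CPM (26 to 3597), their adhesion sum a median of 4518 CPM (1002 to 12201) against 3946 CPM (437 to 13656) in unmarked wells and 411 CPM (7.20 to 3139) in marked wells. Well L2 was the 1 well among them with 2 of the 3 mesenchymal genes, with Col1a1 at 878 CPM and Col3a1 at 1485 CPM. Adding the 28 wells to the unmarked side gave 2332 genes higher and 3523 lower, close to the counts without them.

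Ranges of depth overlapped between the sides. Gene reads ran from 210432 to 1468665 (median 646132) in marked wells, from 91850 to 1467232 (median 792490) in wells with 1 rule gene and from 52687 to 1836609 (median 674768) in unmarked wells, while the wells without a cell had 34 to 563. At 50000 reads, 3852 and 3938 genes were the medians of marked and unmarked wells. Mitochondrial reads made up 3.23% to 12.8% (median 4.71%) and 3.86% to 16.6% (median 5.44%). On the plate, 15 of 18 marked and 62 of 77 unmarked wells lay in rows L to P, and 13 of 18 and 44 of 77 in columns 13 to 24. The largest share of 1 well in the summed reads of the marked side was 10.9%, and each of the 384 wells had an index pair of its own. Of the 14 wells left out by the cell filter, 1 met the gene rule, with 8558 gene reads.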

How the data were processed

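The authors deposited 1 table of gene read counts that covers the plate of 384 wells. Per the labels' protocols, the authors primed RNA with oligo-dT, added ERCC spike-ins and amplified for 24 cycles by a form of Smart-seq2, then used Nextera XT. As named in the submitters' processing notes, cutadapt 1.13, STAR 2.5.2b and HTSeq 0.6.0 were used with GRCm38, with options and strand setting not given in the sources used here. Overlapping or antisense genes may therefore share reads.

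Counts were scaled to each well's gene reads without spike-ins. A side's level was its summed reads as CPM, and log2 ratios used a prior of 1 CPM. Fold values leave the prior out and carry exact conditional 95% Poisson intervals. Symbols came from GENCODE M21 (49326 identifiers matched, 259 not). Python 3.11.15, numpy 2.4.6, pandas 2.3.3, scipy 1.17.1 and, for TMM factors, edgeR 4.0.16 in R 4.3.3 were used. The comparison was checked on simulated data. No test was made. The 1 well with discordant gate labels was left out.

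The wells, the rule and the 33 gene lists were chosen with earlier results of these data known. Named genes were the 10 highest and 10 lowest log2 ratios among genes with at least 50 CPM and with 10 CPM in at least 50% of the wells of the higher side, without the rule genes, ribosomal, mitochondrial and unnamed genes, the 4 list members of highest level, up to 3 members against a list's direction, and a fixed set of markers. Further list members named in the text were chosen after their values were seen. Some list members counted in the lists are not reported here by name. Depth, scaling, filters, the rule's limits and the wells kept were varied as described below, and the sort gate was not.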

Additional observations from a re-analysis of the deposited data

Results flagged for a closer look

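The embryonic well of 50 cells, which entered no comparison, held reads of each of the 10 genes that stood highest in the marked wells. It had Col1a2 at 3311 CPM, Col1a1 at 1176 CPM and Col6a3 at 260.5 CPM, which is between the marked and the unmarked level of each. Col24a1 stood at 43.4 CPM, Pdgfra at 41.8 CPM, Sulf1 at 20.9 CPM, Ddr2 at 19.3 CPM, Adamtsl1 and Tmem119 at 8.04 CPM each and Inhba at 1.61 CPM, the last being 1 read. The wells without a cell had no read of these genes except 1 read of Col1a2, which is 1776 CPM in a well of 563 gene reads. Some of these genes were not particular to the embryonic gate. The adult basal well of 50 cells had Sulf1 at 39.9 CPM, Pdgfra at 38.2 CPM, Ddr2 at 24.9 CPM and Col1a2 at 9.97 CPM. It had no read of Col1a1, Col6a3, Col24a1, Adamtsl1, Tmem119 and Inhba. In the adult luminal well of 50 cells only Pdgfra was read, at 1.88 CPM. The sum of the embryonic single cells had Col1a1 at 617 CPM, Col3a1 at 1228 CPM and Dcn at 318 CPM. Beside it, the embryonic well of 50 cells had these at 1176, 3598 and 706 CPM, and Epcam at 601 against 694 CPM. Other genes of the marked wells stood lower in it than in that sum: Ddr2 at 19.3 against 84.5 CPM, Sulf1 at 20.9 against 65.1 CPM, Postn at 6.43 against 56.7 CPM, Pdgfra at 41.8 against 55.3 CPM, Twist1 at 24.1 against 40.2 CPM, Adamtsl1 at 8.04 against 37.4 CPM, Inhba at 1.61 against 29.03 CPM and Tmem119 at 8.04 against 14.7 CPM. It is 1 well, with no replicate.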

How the results depend on the processing

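Of the named genes and lists, 7295 values under alternatives kept direction and stayed within a limit, 288 moved beyond it, and 11 turned direction. The limit was the spread between marked wells or, for shares of genes, 1.5 times. That spread was wide, a log2 standard deviation of 3.33 for the collagen median and 1.76 for the adhesion median. An adhesion median of -4.28 in place of -2.54, without marked wells with Epcam at 100 CPM, thus stayed within it. Taking the median of per-cell CPM put 37.0% of measured genes 2-fold higher in place of 19.4% and 63.7% of the 2-fold calls on the higher side in place of 40.2%. It gave 21.4% and 9.98% by the stricter count, and a median of -6.29 for adhesion genes. A minimum of 20 CPM left 2103 genes lower in place of 3592. The stricter shares (1.53% higher, 0.538% lower) became 0.923% and 0.326% with no minimum level, 0.910% and 0.354% with the rule at 50 CPM, 2.66% and 1.90% with at least 3 rule genes, 2.56% and 1.88% without the marked wells with Epcam at 100 CPM, and 2.50% and 2.20% without those with an epithelial gene. The stricter lower share was 1.45% with the rule at 200 CPM, 0.927% with the stricter cell filter and 1.28% without the 3 wells of low collagen. Leaving out 1 marked well at a time gave 18.97% to 19.6% of genes higher, 28.8% to 31.5% lower, 1.27% to 1.57% higher by the stricter count, 0.418% to 0.916% lower (the most without O10), 5.49 to 5.79 for the collagen median and -2.88 to -2.39 for adhesion genes. Scaling by TMM or median of ratios moved the median of all genes from -0.19 to -0.08 and -0.05.

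Some log2 ratios turned, and beyond the wells named the cause was not tested. Ocln (1.53) was -3.05 with at least 3 rule genes and without wells with Epcam or an epithelial gene, -2.42 in rows L to P and -2.94 (without G17) to 1.69 with 1 well left out. Hbb-bt (1.06) was -0.32 with at least 3 rule genes and -0.78 (without O11) to 1.21 with 1 well left out. Trp73 (1.25) was -0.17 with at least 3 rule genes, Cldn5 (-2.64) was 0.54 with the rule at 50 CPM, Fmod (-1.09) was 0.088 after thinning and Tyms (-1.13) was 3.58 by the median of per-cell CPM. No paired analysis was possible because both sides come from wells of 1 gate with no replicate number. Depth limits the shares: at 50000 reads, 5 reads are reached only by abundant transcripts, and a gene below that may still have been expressed.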

Other observations

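In 1 well the title named the luminal gate and the sort label the embryonic one, so it was placed in no group. It had 774060 gene reads and 4031 genes. Of the 5 rule genes only Postn was read, at 258 CPM, and Col1a1, Col3a1, Pdgfra and Krt14 had no read. Epcam was at 1917 CPM, Krt8 at 1543 CPM, Krt18 at 4095 CPM and Lgr5 at 187 CPM.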
